A study of Homo sapiens with 24 samples.

Results

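The respiratory chain of the inner mitochondrial membrane passes electrons from NADH through complex I and from succinate through complex II to ubiquinone, then through complex III, the carrier cytochrome c and complex IV to oxygen, and complex V uses the resulting proton gradient to make ATP. Most of its subunits are encoded in the nucleus and are described here at the level of mRNA. The hypoxia-inducible factor HIF is known for lowering the use of oxygen by this chain, in part through the subunit isoforms NDUFA4L2 and COX4I2 and through enzymes that keep pyruvate out of mitochondria.

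Members were taken as every gene symbol in the counts that begins with NDUFA, NDUFB, NDUFC, NDUFS, NDUFV, UQCR or ATP5, that begins with COX and a digit from 4 to 8, or that is SDHA, SDHB, SDHC, SDHD, CYC1 or CYCS. This gave 99 of 23106 symbols. Of these, 76 encode subunits in their common form (37 of complex I, 4 of complex II, 9 of complex III, 11 of complex IV and 15 of complex V, with NDUFA4 counted under complex IV, where it is now placed), and CYCS encodes cytochrome c. A further 7 are alternative isoforms of complex IV (NDUFA4L2, COX4I2, COX6A2, COX6B2, COX7A1, COX7B2 and COX8C). The other 15 matching symbols are no subunits: the complex I assembly factors NDUFAF1 to NDUFAF7, the supercomplex factor COX7A2L, ATP5S and ATP5SL (current symbols DMAC2L and DMAC2), and the pseudogenes or retrocopies NDUFAF4P1, UQCRHL, UQCRBP1, ATP5EP2 and ATP5L2. Counts of genes with near-identical copies, such as UQCRH and UQCRHL, are uncertain, since reads that mapped to both were removed.

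RCC4+VHL cells are a human clear cell renal carcinoma line in which wild-type VHL, the factor that marks HIF for destruction when oxygen is present, was put back by stable transfection. All cells were kept in charcoal-stripped serum before treatment, and each of the 4 groups held 6 libraries from 6 h of exposure to ambient oxygen (normoxia) or 0.5% oxygen (hypoxia), with 100 nM ITE, a ligand of the aryl hydrocarbon receptor AHR, or 0.1% DMSO, its solvent. Groups are named by oxygen and then by compound, as in hypoxia + ITE. All come from 1 transfected clone. The study's methods call the replicates of a group independent, but neither they nor the labels tie a library to a culture or a day, so p-values measure the spread between these libraries. The comparisons share groups: normoxia + DMSO is the control of both hypoxia and ITE, and hypoxia + DMSO also serves as the control of ITE in hypoxia.

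Total counts ranged from 770094 to 93851342 per library, so that a floor of 3 counts corresponded to between 0.032 and 3.90 CPM (counts per 1000000 counts), and such floors cover counting error only. Levels are given as CPM after normalisation by the TMM method, and differences as log2 fold changes from a quasi-likelihood model (edgeR) of all 24 libraries, with p-values adjusted over the 11735 genes that passed a filter on low counts. In bulk RNA a change in the cells that express a gene and a change in RNA per cell cannot be told apart. A gene is said to have risen or fallen at an adjusted p under 0.05. The 8 markers of the line summed to between 3124 and 6381 CPM, with PAX8 from 191 to 476 CPM, whereas ALB and APOA1 were at most 0.222 CPM. The sum was carried mainly by VIM, KRT8 and KRT18. Of the same 8, CA9 was at 0 and CA12 at most at 0.190 CPM outside normoxia + DMSO replicate 4. CDH6 was between 1.27 and 27.4 CPM. Normoxia + DMSO replicate 4 stood apart in genes of other tissues: fibroblast markers (COL1A1, COL3A1, PDGFRA and DCN, 4 of 4 highest there) summed to 46.3 CPM against 0 to 3.23 in the other 23 libraries, and 8 skeletal muscle genes, listed after these values were seen, to 79.9 against 0 to 2.22 CPM. The hypoxic libraries hypoxia + DMSO replicate 1 and hypoxia + ITE replicates 3 and 6, stood apart in short transcripts, as set out with the results they touch.

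All 77 subunit and cytochrome c genes passed the filter, and with the other classes 88 of 99 members were tested. The 11 that were not are the 7 alternative isoforms and 4 of the 5 pseudogenes or retrocopies. In normoxia + DMSO the 77 genes ranked between the 40.2nd and the 99.1st percentile of mean CPM among the genes tested, with a median at the 82.4th. ATP5B, the catalytic beta subunit of ATP synthase, was the highest (912 CPM on average) and NDUFA3, a small membrane arm subunit of complex I, the lowest (22.4 CPM). Together the subunit genes took on average 1.14% of all counts in normoxia + DMSO, 1.17% in normoxia + ITE, 1.24% in hypoxia + DMSO and 1.28% in hypoxia + ITE. The share was 1.64% in hypoxia + DMSO replicate 1 and 1.53% and 1.44% in hypoxia + ITE replicates 3 and 6. It lay between 1.07% and 1.34% in all other libraries.

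Promoters of these genes shared sequence features that no rule of membership used. Windows from 250 bases before to 50 after the canonical GENCODE start were read from GRCh37 for 76 of the 77 genes and for 11406 of the genes tested, and searched on both strands. The YY1 motif AANATGGC was present in 33 of 76 windows (43.4%) against 11.5% of all windows. Of the 34 matches in subunit genes, 73.5% began between 20 bases before and 30 after the start, as did 59.8% of the 1420 matches over all genes. The motif holds the letters ATG, so that a match past the start can coincide with a first codon. Matches are shown, in capitals, for NDUFB8 and NDUFS1 of complex I, whose levels are described below, and for the subunit of each other complex with the highest level among those with the motif in this interval. Where the match lies on the other strand, the capitals show its reverse complement.
NDUFB8, chr10:102289593-102289622, minus strand: tgaagaaggtgAAGATGGCggtggccaggg
NDUFS1, chr2:207024134-207024163, minus strand: tagccgaggccGCCATATTgaataagcgac
SDHC, chr1:161284182-161284211, plus strand: gaccggaacccAAGATGGCtgcgctgttgc
UQCRC1, chr3:48647038-48647067, minus strand: actgcagctggAAGATGGCggcgtccgtgg
COX8A, chr11:63742078-63742107, plus strand: cggccagcgcaGCCATTTTggcttcctgac
ATP5B, chr12:57039732-57039761, minus strand: acccggactacGCCATGTTggggtttgtgg

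The NRF1 motif (GCGCA, 1 base of any kind, then GCGC) was found in 19 of 76 subunit windows against 12.6% of all, most often in complex III (5 of 9), and the ETS or GABP motif CCGGAAG in 30.3% against 20.6%. Both forms of the hypoxia response core were about as frequent in subunit windows as in all. ACGTG was present in 19 of 76 windows against 26.9%, and GCGTG, which is also the core bound by AHR, in 38 of 76 against 53.3%. The 7 alternative isoforms held no YY1 motif, 1 NRF1 motif and GCGTG in 3. These shares are descriptions of windows of equal length, and a match is not evidence of binding.

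The complexes were first compared as sums of their subunits' CPM in every library. Complex I subunits summed to between 2970 and 3540 CPM in normoxia + DMSO and between 3219 and 3543 CPM in normoxia + ITE. In hypoxia + DMSO the lowest, median and highest sums were 3294, 3501 and 5623 CPM, and in hypoxia + ITE 3267, 3752 and 7581 CPM. The ranges overlapped in hypoxia and normoxia, and the 3 highest sums came from hypoxia + DMSO replicate 1 (5623 CPM), hypoxia + ITE replicate 3 (5778 CPM) and hypoxia + ITE replicate 6 (7581 CPM). The mean sum was 3243 ± 247 CPM in normoxia + DMSO and 3829 ± 899 CPM in hypoxia + DMSO (SD, n = 6), and the 5 remaining libraries of hypoxia + DMSO gave 3470 ± 210 CPM. Hypoxia + ITE gave 4566 ± 1762 CPM with all 6 libraries and 3510 ± 407 CPM with 4, against 3390 ± 139 CPM in normoxia + ITE. Complex III followed the same order, with 2366, 2461 and 2615 CPM in these 3 libraries against 1311 to 1742 CPM in the other 21. Complex IV summed to 3294, 2959 and 3298 CPM in them against 1539 to 2287 CPM elsewhere, and complex V to 5523, 4953 and 5639 CPM against 3298 to 4366 CPM. Complex II differed, since hypoxia + ITE replicate 6 had its lowest sum (356 CPM) whereas hypoxia + DMSO replicate 1 had its highest (798 CPM).

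**Figure D1:**
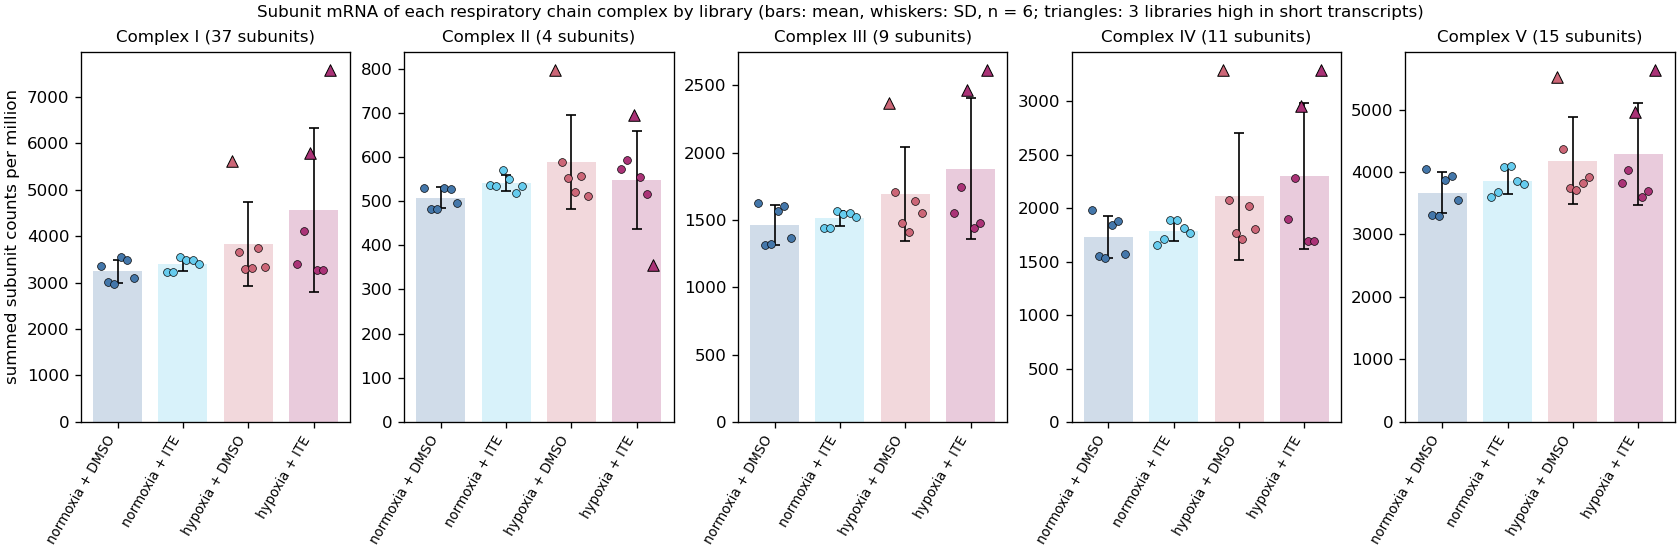
Summed CPM of the subunits of each complex (vertical axis) in the 4 groups (horizontal axis), with 1 point per library, bars for the mean and whiskers for the SD (n = 6). The 3 triangles, hypoxia + DMSO replicate 1 and hypoxia + ITE replicates 3 and 6, lie above all other libraries in complexes I, III, IV and V, and the remaining hypoxic libraries overlap the normoxic ones.

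The same 3 libraries were high in short transcripts of other genes. The subunit mRNAs are short, with a median annotated length of 783.5 bases against 3377 for all genes tested, and 38 of the 76 with a length are under 800 bases against 3.19% of all. Genes under 800 bases that are not members had median log2 deviations from the normoxia + DMSO mean of 0.65, 0.79 and 0.86 in hypoxia + DMSO replicate 1, hypoxia + ITE replicate 3 and hypoxia + ITE replicate 6, against -0.10 to 0.25 in the other 21 libraries. The 77 subunit genes deviated by 0.85, 0.79 and 0.61 in these libraries and by -0.12 to 0.29 in the others. Other genes at or above 60% GC were also higher in hypoxia + ITE replicate 6, with a median deviation of 1.07 against -0.14 to 0.11 in all other libraries. All 3 libraries are hypoxic, so that oxygen and this property of the libraries cannot be told apart in them. The counts and medians for hypoxia are therefore given with all 24 libraries and without these 3, an alternative chosen after the values were seen. A fit with offsets for GC content and length in every library, and one that gave less weight to libraries of low quality (limma with sample quality weights), are given over both treatments.

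**Figure D2:**
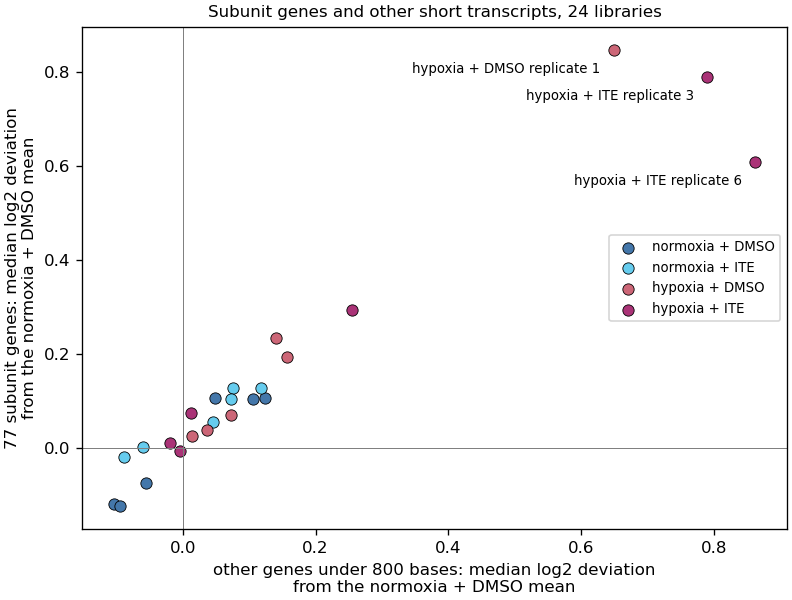
Median log2 deviation from the normoxia + DMSO mean of the 77 subunit genes (vertical axis) against that of other genes under 800 bases (horizontal axis), 1 point per library, coloured by group. The 3 hypoxic libraries at the upper right deviate by 0.61 to 0.85 in subunit genes, and the other 21 lie between -0.12 and 0.29.

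Hypoxia in DMSO took none of the 88 members tested past the threshold (edgeR; background 1.16% of all genes higher and 0.136% lower). At an unadjusted p under 0.05, 11 members were higher and 0 lower, against 5.41% and 4.06% of all genes. DESeq2 called 0 members, and of all 11735 genes 203 higher and 46 lower. The median log2 fold change of the 77 subunit genes was 0.26 against -0.00 for all genes, and 72 of the 77 had a positive value. Without the 3 libraries 0 members passed the threshold by edgeR (background 2.71% higher and 1.11% lower). At an unadjusted p under 0.05, 9 members then lay above normoxia and 0 below it (7.63% and 7.83%). The median was then 0.08, and without hypoxia + DMSO replicate 1 alone it was 0.10. All 77 of the 95% intervals lay within a change of 1 on the log2 scale in either direction, which is a factor of 2. Without the 3 libraries, 76 of 77 lay within 0.5. None of the 77 genes had groups that did not overlap, against 1.8% of all genes higher and 0.937% lower in DMSO and 1.21% and 0.92% in ITE.

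Hypoxia in ITE gave the same count of 0 members past the threshold by edgeR (background 1.89% higher and 0.46% lower). At an unadjusted p under 0.05, 30 members were higher and 1 lower, against 13.9% and 6.21% of all genes. DESeq2 called 7, NDUFS7, NDUFB11, NDUFB8, NDUFA13, NDUFB2, NDUFA2 and UQCR11, all higher. Of all 11735 genes it called 507 higher and 177 lower. The median of the subunit genes was 0.23 with all libraries, against 0.02 for all genes, and 0.04 without the 3. Then 0 members passed the threshold by edgeR (background 1.79% higher and 0.667% lower). With an unadjusted p under 0.05, 4 members lay above normoxia and 0 below it (6.33% and 5.5%).

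Over both treatments together, hypoxia raised 3 of 88 members, NDUFB8, NDUFA2 and NDUFB2, and lowered 0, against 3.35% and 1.66% of all genes. The share of members called, 3 of 88, was near the background. At an unadjusted p under 0.05, 47 were higher and 1 lower, with 14.4% and 9.08% of all genes. DESeq2 called 11 members, all higher, and of all 11735 genes 735 higher and 390 lower. Without the 3 libraries only NDUFB8 of these tested members passed the threshold (background 4.64% higher and 3.55% lower), unadjusted p-values under 0.05 came to 9 in the higher and 1 in the lower direction (10.1% and 11.1%), the subunit median was 0.06 against -0.01 for all genes, and 77 of 77 intervals lay within 0.5. The subunit median with all libraries was 0.28, and it was positive under each of the 3 scalings tried (TMM, DESeq2 size factors and upper quartile). With offsets for GC content and length it was 0.14 over the 76 genes with a length, against 0.03 for all genes, and with sample quality weights 0.09 against -0.01. The fit with offsets called 6 members, and of all 11413 genes in it 605 higher and 230 lower. Subunits under 800 bases had a median of 0.36 and longer ones of 0.18, while other genes had medians of 0.29 under 800 bases and 0.00 above. Without the 3 libraries these 4 medians were 0.08, 0.03, 0.04 and -0.01. With the offsets they were 0.12, 0.18, 0.06 and 0.03, so that the order of short and long subunits turned.

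**Figure D3:**
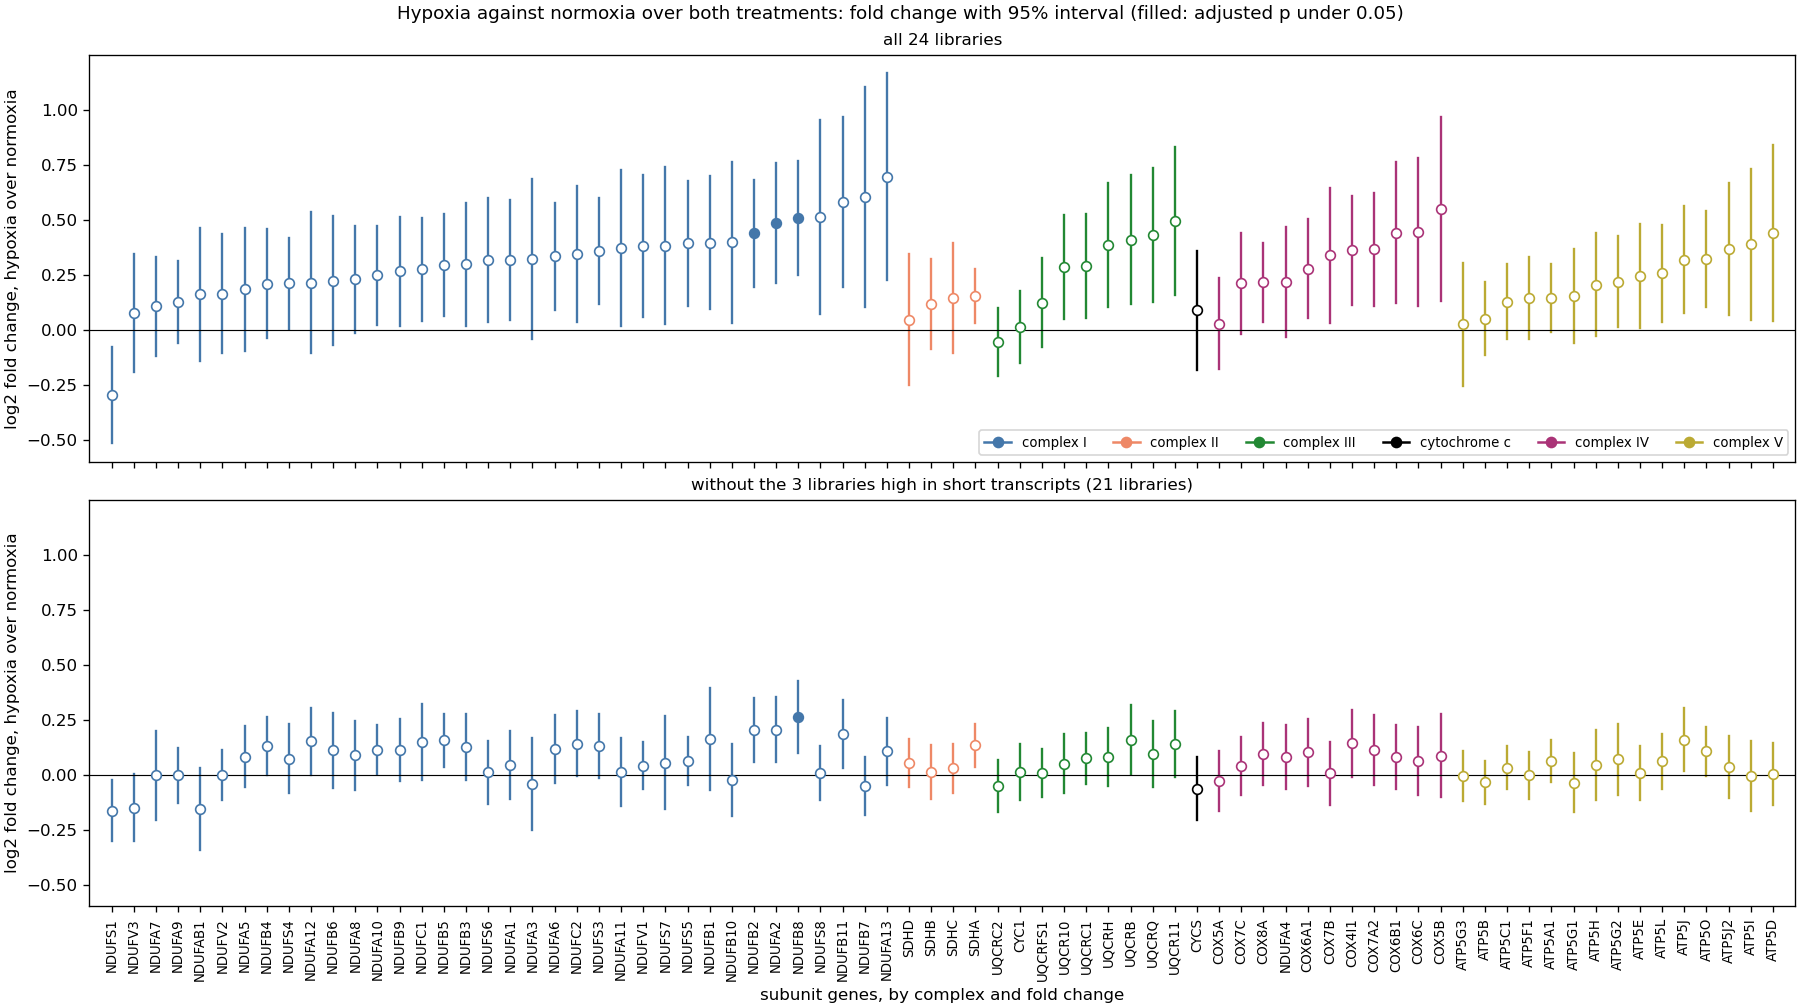
Log2 fold change of 76 of the 77 genes for hypoxia over both treatments (vertical axis) with its 95% interval, ordered by complex and fold change (horizontal axis), with all 24 libraries above and without the 3 libraries high in short transcripts below. The 3 filled points above are NDUFB2, NDUFA2 and NDUFB8 and the 1 below is NDUFB8, and the median of the 77 genes falls from 0.28 to 0.06.

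Complex I contains the genes past the threshold. NDUFB8, an accessory subunit of the membrane arm whose protein is commonly used as a marker of assembled complex I (chr10:102283497-102289757, GRCh37), had lowest, median and highest levels of 70.3, 76.9 and 86.3 CPM in normoxia + DMSO and 61.4, 79.6 and 95 CPM in normoxia + ITE. In hypoxia + DMSO they were 79.9, 101 and 151 CPM, and in hypoxia + ITE 80.2, 106 and 170 CPM. The medians of both hypoxic groups lay above every normoxic library, but the lowest hypoxic libraries did not. NDUFB8 rose over both treatments by 0.51 ± 0.13 (SE, adjusted p = 0.0141, edgeR), and by 0.26 ± 0.08 without the 3 libraries (adjusted p = 0.0398). In DMSO alone its difference was 0.42 ± 0.18 (adjusted p = 0.421) and in ITE alone 0.60 ± 0.18 (adjusted p = 0.0684).

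NDUFA2, an accessory subunit of the NADH-oxidising N module, and NDUFB2, of the membrane arm, gave the other calls over both treatments. NDUFA2 stood at 72.1, 81.6 and 88.1 CPM (lowest, median, highest) in normoxia + DMSO, where normoxia + ITE had 69.8, 85.3 and 96.6 CPM, and at 84.9, 94.4 and 160 CPM in hypoxia + DMSO, and 83.2, 107 and 217 CPM in hypoxia + ITE. The highest values, 160, 164 and 217 CPM, were those of the 3 libraries. Its difference over both treatments was 0.49 ± 0.13 (adjusted p = 0.029) and fell to 0.21 ± 0.07 without them (adjusted p = 0.0757). NDUFB2 was at 84.6, 95.4 and 115 CPM in normoxia + DMSO, 110, 117 and 161 CPM in hypoxia + DMSO and 95.9, 126 and 225 CPM in hypoxia + ITE, with overlap in both treatments. Its difference went from 0.44 ± 0.12 (adjusted p = 0.028) to 0.20 ± 0.07 (adjusted p = 0.079) in the same way. Both calls were thus lost without the 3 libraries.

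Of the remaining complex I subunits, NDUFB1, of the membrane arm, had the largest positive value in hypoxia with DMSO at 0.55 ± 0.21 (adjusted p = 0.327), with 0.28 without the 3 libraries. NDUFS5 had the highest level of the complex per kilobase (672 CPM per kilobase over the 24 libraries), and its difference was 0.37 ± 0.19 (adjusted p = 0.573). NDUFS1, the large iron-sulphur subunit of the N module, had the lowest value, -0.25 ± 0.15 in DMSO (adjusted p = 0.636) and -0.34 ± 0.15 in ITE (adjusted p = 0.207). Its annotated transcript is long (11660 bases), and its lowest levels were in hypoxia + DMSO replicate 2 (56.3 CPM), the shallowest library, and in the 3 libraries high in short transcripts (57.7, 78.6 and 83.8 CPM), against 102 to 137 CPM in the others. NDUFB5, of the membrane arm, passed the threshold over both treatments in the fit with offsets (0.41 ± 0.11, adjusted p = 0.0161, edgeR) and stood at 0.30 ± 0.11 without them (adjusted p = 0.113). The fit with offsets called 605 of 11413 genes higher and 230 lower. Over the whole complex the medians of the 37 subunits were 0.26 in DMSO and 0.27 in ITE, and 0.08 and 0.07 without the 3 libraries.

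Some complex I values in hypoxia with ITE were set mainly by replicate 6. NDUFA13, a membrane arm subunit also known as GRIM-19, was at 133, 171 and 930 CPM (lowest, median, highest) in hypoxia + ITE, where 930 CPM was replicate 6 and 348 CPM replicate 3. It ranged from 112 to 153 CPM over both normoxic groups. Its difference was 1.17 in ITE (adjusted p = 0.0508) and 0.13 without the 3 libraries. NDUFB7, NDUFS7, NDUFS8 and NDUFV1, the last of which binds NADH, likewise reached 722, 187, 586 and 612 CPM in hypoxia + ITE replicate 6.

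Complex II, succinate dehydrogenase, which also belongs to the citric acid cycle, gave 0 of 4 calls in each comparison with hypoxia by edgeR, with 1 of 4 at an unadjusted p under 0.05 in DMSO and over both treatments (SDHA) and 0 in ITE. Of all genes, 5.41%, 14.4% and 13.9% were higher at this level in DMSO, over both treatments and in ITE. The counts were the same without the 3 libraries (7.63%, 10.1% and 6.33% of all genes). DESeq2 called SDHA over both treatments, as did limma with sample quality weights (0.15 ± 0.05, adjusted p = 0.0317). Of all 11735 genes DESeq2 called 735 higher and 390 lower there, and limma 800 higher and 733 lower. SDHA, the flavoprotein, was at 125, 144 and 151 CPM (lowest, median, highest) in normoxia + DMSO and at 144, 159 and 173 CPM in hypoxia + DMSO. Its difference was 0.18 ± 0.09 in DMSO (adjusted p = 0.499) and 0.13 ± 0.08 in ITE (adjusted p = 0.386). SDHD, a membrane anchor, had the largest value of the 4 in DMSO (0.26 ± 0.21, adjusted p = 0.75) and a negative one in ITE (-0.17 ± 0.21, adjusted p = 0.686). In hypoxia + ITE replicate 6 SDHD was at 42.7 CPM, against 156 to 280 CPM in all other libraries. SDHC, the other anchor, was lowest in the same library (79.4 CPM) and had the smallest difference in DMSO, 0.17 ± 0.17.

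Complex III passes electrons from ubiquinol to cytochrome c. None of its 9 subunits passed the threshold in DMSO, in ITE or over both treatments by edgeR, where 0, 6 and 6 were higher at an unadjusted p under 0.05 (5.41%, 13.9% and 14.4% of all genes), and DESeq2 called 0, 1 and 2. These counts were 0, 0 and 1 without the 3 libraries (7.63%, 6.33% and 10.1% of all genes). UQCRB, a small subunit near the site of ubiquinone, was called over both treatments in the fit with offsets for GC content and length (0.63 ± 0.17, adjusted p = 0.0228, edgeR), whereas it stood at 0.41 ± 0.14 without offsets (adjusted p = 0.0851) and at 0.16 ± 0.08 without the 3 libraries (adjusted p = 0.221). Of all 11413 genes in the fit with offsets, 605 were called higher. The levels of UQCRB in hypoxia + DMSO replicate 1 and hypoxia + ITE replicate 3, 138 and 156 CPM, lay above the 48.0 to 82.5 CPM of the other 22 libraries. UQCRH, the hinge subunit, had the highest level per kilobase (637 CPM per kilobase). CYC1, which carries the haem of cytochrome c1, was at 155, 174 and 212 CPM (lowest, median, highest) in normoxia + DMSO and at 129, 179 and 199 CPM in hypoxia + DMSO, with a difference of -0.04 ± 0.11 and an interval from -0.27 to 0.19. UQCRC2, a core subunit, was at -0.01 ± 0.11 in DMSO and -0.10 ± 0.11 in ITE. UQCRHL, the copy of UQCRH, had the largest positive value under this heading in DMSO, 0.50 ± 0.35 (adjusted p = 0.709), at only 0 to 28 CPM. CYCS, cytochrome c itself, differed by 0.18 ± 0.19 in DMSO and -0.01 ± 0.19 in ITE. Its levels of 486 and 529 CPM in hypoxia + DMSO replicate 1 and hypoxia + ITE replicate 3 were above the 175 to 359 CPM of the other 22 libraries.

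Complex IV, cytochrome c oxidase, gave 0 of 11 calls by edgeR in DMSO, in ITE and over both treatments. At an unadjusted p under 0.05, 0, 6 and 8 of its subunits were higher with all libraries (5.41%, 13.9% and 14.4% of all genes) and 1, 1 and 0 without the 3 (7.63%, 6.33% and 10.1%). DESeq2 called 0, 0 and 2 with all libraries. COX4I1, the common form of subunit 4, was the highest of them (410 CPM on average in normoxia + DMSO, and 612 CPM per kilobase over the 24 libraries). Its lowest, median and highest levels were 342, 402 and 487 CPM in normoxia + DMSO, 385, 422 and 840 CPM in hypoxia + DMSO and 384, 569 and 709 CPM in hypoxia + ITE. Its difference over both treatments was 0.36 ± 0.12 (adjusted p = 0.0719) and 0.14 ± 0.07 without the 3 libraries. COX7B had the largest difference in DMSO, 0.42 ± 0.21 (adjusted p = 0.549), and was at 223 CPM in hypoxia + DMSO replicate 1 against 114 to 122 CPM in the other 5. COX5A had the smallest, 0.06 ± 0.14. NDUFA4 differed by 0.29 ± 0.17 in DMSO (adjusted p = 0.637) and 0.15 ± 0.17 in ITE (adjusted p = 0.665). COX7A2L, which helps to join complexes III and IV, differed by 0.27 ± 0.16 in DMSO (adjusted p = 0.641). It was called over both treatments in the fit with offsets (0.22 ± 0.07, adjusted p = 0.0481), as were 605 of 11413 genes in the higher direction.

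The hypoxia-linked isoforms were close to absent. NDUFA4L2, a paralogue of NDUFA4 known as a HIF target that lowers complex I activity, had 380 counts in 24 libraries, of which 209 were in normoxia + DMSO replicate 4 (7.70 CPM). In the other 23 libraries it had 171 counts, or 0.363 CPM by total counts (95% exact Clopper-Pearson interval 0.311 to 0.422), and at most 0.724 CPM. Its lowest, median and highest levels were 0, 0.172 and 0.714 CPM in hypoxia + DMSO, 0, 0.290 and 0.724 CPM in hypoxia + ITE and 0, 0.137 and 0.616 CPM in normoxia + ITE. These groups overlapped, and the 5 other libraries of normoxia + DMSO lay between 0.106 and 0.412 CPM. Per kilobase, NDUFA4L2 made up 0.369% ± 0.392 of the sum of NDUFA4 and NDUFA4L2 in hypoxia + DMSO and 0.328% ± 0.350 in normoxia + ITE (SD, n = 6). The share was 0.464% ± 0.498 in hypoxia + ITE and 1.83% ± 3.60 in normoxia + DMSO, which includes replicate 4.

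COX4I2, which replaces COX4I1 under low oxygen in some tissues, had 1 count in all, again in normoxia + DMSO replicate 4. The other 23 libraries had 0 of 470700632 counts, which allows up to 0.00637 CPM by total counts. COX4I1 in the same libraries was between 342 and 840 CPM. The library with most NDUFA4L2 counts and the COX4I2 count was also the one with the genes of fibroblasts and muscle (COL1A1 27.1 CPM, ACTA1 19.1 CPM). It also held CA9 (0.479 CPM) and CA12 (6.81 CPM), listed markers of the line that were at 0 and at most 0.190 CPM elsewhere. Whether these genes share a source with its NDUFA4L2 counts was not tested. An induction of NDUFA4L2 or COX4I2 by 6 h of hypoxia was not detectable at this depth.

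The 250 bases before the canonical start in GRCh37 were compared in both isoform pairs, since HIF is known to act on NDUFA4L2 and COX4I2. ACGTG was in none of the 4 windows, and GCGTG was found only in COX4I2, which has 2 copies, both on the minus strand. COX4I1 held 34 CpG sites in its window, COX4I2 18, NDUFA4 9 and NDUFA4L2 3. The window of COX4I1 runs into the divergent gene EMC8, and that of NDUFA4L2 into a transcript of its own with an earlier start. No match says only that these letters are not in these 250 bases.

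The tissue-restricted isoforms of complex IV were equally low. COX6A2 and COX7A1, the forms of heart and skeletal muscle, had 6 and 12 counts over all libraries, of which 6 and 7 were in normoxia + DMSO replicate 4, the library with muscle genes. COX6B2, COX7B2 and COX8C, known from testis, had 1, 0 and 2 counts. Their common counterparts were well expressed: in normoxia + DMSO COX6A1 averaged 281, COX6B1 274, COX7A2 233 and COX8A 406 CPM per kilobase, and COX7B, whose annotated transcript is longer, 41.3.

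Complex V, ATP synthase, gave 0 of 15 calls by edgeR in DMSO, in ITE and over both treatments, and DESeq2 called 0, 0 and 1. Its higher subunits at an unadjusted p under 0.05 numbered 5, 2 and 8 with all libraries (5.41%, 13.9% and 14.4% of all genes) and 2, 0 and 1 without the 3 (7.63%, 6.33% and 10.1%). The median in ITE was 0.18 with all libraries and -0.03 without the 3, where 11 of 15 values were negative. ATP5B, the highest member, was at 818, 882 and 1045 CPM (lowest, median, highest) in normoxia + DMSO and at 857, 921 and 973 CPM in hypoxia + DMSO. Its difference was 0.00 ± 0.11 in DMSO (interval -0.23 to 0.24) and 0.10 ± 0.11 in ITE, although it reached 1471 CPM in hypoxia + ITE replicate 6. ATP5J, of the peripheral stalk, had the largest difference in DMSO, 0.43 ± 0.17 (adjusted p = 0.352). ATP5S, which is not a subunit, had the largest negative value under this heading, -0.10 ± 0.23. The c ring is encoded by 3 genes for the same mature protein. Per kilobase ATP5G2 made up 59.9% of them over the 24 libraries, ATP5G1 21.0% and ATP5G3 19.1%, but without division by length ATP5G3 came first with 48.6%, so that the order rests on the annotated lengths.

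ITE took no member past the threshold in either oxygen state in the fit of all 4 groups, which does not pair libraries by replicate number. A fit of the compared groups alone with the replicate block called 2 members in normoxia, as given at the end. In normoxia the edgeR fit of all 4 groups called 0 of 88 (background 0.0511% higher and 0% lower), and 0 members had an unadjusted p under 0.05 (0.775% and 0.682% of all genes). DESeq2 called 0 members there, and of all genes 13 higher and 1 lower. The subunit median was 0.06, with values from -0.18 (NDUFB11) to 0.29 (COX7B). The fit of all 4 groups estimates 1 spread per gene. The coefficient of variation between libraries was 12.7% in normoxia and 29.1% in hypoxia. For ITE in normoxia without the 3 libraries, edgeR called 0 of the 77 subunit genes. At an unadjusted p under 0.05, 5 of them were then higher and 0 lower, against 255 and 302 of all 11849 genes. With sample quality weights (limma) 0 were called, and 10 were higher and 0 lower, against 585 and 895 of all 11735. In hypoxia edgeR called 0 (background 0.0597% higher and 0% lower) and DESeq2 called 0 (8 higher and 1 lower of all genes). There, 6 members were higher at an unadjusted p under 0.05 (ATP5D, NDUFA13, NDUFB7, NDUFS7, NDUFS8 and NDUFV1), and 0 lower, against 7.48% and 2.08%. Without the 3 libraries 0 members passed the threshold by edgeR (background 0.0591% higher and 0% lower), 0 had an unadjusted p under 0.05 (1.83% and 1.25%), and 76 of 77 intervals lay within 0.5. None of the 77 genes had ITE and DMSO groups that did not overlap, against 0.477% and 0.213% of all genes in normoxia and 0.153% and 0.128% in hypoxia. The interaction, the difference between the effects of ITE in hypoxia and in normoxia, gave 0 calls by edgeR and by DESeq2 (background 0% and 0%). At an unadjusted p under 0.05 it gave 3 members higher and 0 lower, against 2.47% and 0.716%. Each of the 6 genes named for ITE in hypoxia had its highest level in hypoxia + ITE replicate 6, as did genes not among them, such as COX5B.

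Genes that put the chain together gave no calls by edgeR with all libraries. The 7 complex I assembly factors NDUFAF1 to NDUFAF7 lay between -0.09 and 0.28 in hypoxia with DMSO and between -0.21 and 0.18 with ITE, with 0 calls by edgeR and 0 at an unadjusted p under 0.05, also without the 3 libraries. From lists of assembly factors, 13 genes of complex I, 2 of complex II, 3 of complex III, 22 of complex IV and 4 of complex V were tested, with 12 regulators of mitochondrial biogenesis and 9 genes that feed electrons into the chain from elsewhere or act in the matrix. Of these 65 genes edgeR called 0 in DMSO, in ITE and over both treatments, an unadjusted p under 0.05 was reached by 2, 10 and 12 in the higher direction (5.41%, 13.9% and 14.4% of all genes) and 0 in the lower, and DESeq2 called 0, 2 (COX19 and ETFB) and 5 (these, ATPAF1, PET100 and YY1). Without the 3 libraries 66 were tested, of which 1, 3 and 7 were higher (7.63%, 6.33% and 10.1% of all genes) and 4, 2 and 5 lower (7.83%, 5.5% and 11.1%). Over both treatments without the 3 libraries, YY1, a regulator that binds the motif shown above, rose by 0.25 ± 0.06 (adjusted p = 0.00758), and SCO1, a copper chaperone of complex IV, changed by -0.23 ± 0.06 (adjusted p = 0.00859). These were the only edgeR calls among the 66 genes in the 3 comparisons with hypoxia. In that fit over both treatments 4.64% of all genes were called higher and 3.55% lower. A link between YY1 and the subunit levels was not tested. With all libraries neither passed by edgeR (adjusted p = 0.0614 for YY1 and 0.366 for SCO1), whereas DESeq2 called YY1.

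Some genes of a list linked to HIF and to mitochondria rose in the same libraries. Of 12 tested, 6 rose and 0 fell in hypoxia with DMSO (PDK1, BNIP3, BNIP3L, MXI1, FAM162A and SLC25A36), against 1.16% of all genes higher. With ITE 6 rose and 0 fell (1.89% of all genes higher). Without the 3 libraries 7 rose in DMSO, in ITE and over both treatments (2.71%, 1.79% and 4.64% of all genes higher). BNIP3, a receptor for the removal of mitochondria, was at 61.6, 79.6 and 98.6 CPM (lowest, median, highest) in normoxia + DMSO and at 446, 468 and 540 CPM in hypoxia + DMSO. The groups did not overlap, and the difference was 2.55 ± 0.14 in DMSO (adjusted p = 2.71e-13) and 2.40 ± 0.14 in ITE (adjusted p = 8.65e-13). PDK1, the kinase that inhibits pyruvate dehydrogenase, was at 24.5, 25.4 and 29.9 CPM in normoxia + DMSO, 65.1, 82.4 and 93.6 CPM in hypoxia + DMSO and 43.2, 65.7 and 84.7 CPM in hypoxia + ITE, and it rose by 1.61 ± 0.14 in DMSO (adjusted p = 5.06e-09). BNIP3L rose by 1.96 ± 0.13 and FAM162A, a mitochondrial protein induced by hypoxia, by 2.04 ± 0.18 in DMSO. LONP1, the matrix protease that degrades COX4I1 in hypoxia, differed by 0.31 ± 0.17 in DMSO (adjusted p = 0.579) and rose by 0.65 ± 0.17 in ITE (adjusted p = 0.0371). Its median levels were 254 CPM in hypoxia + DMSO and 252 CPM in hypoxia + ITE, where the highest library reached 614 CPM, and without the 3 libraries it rose by 0.34 ± 0.07 in DMSO (adjusted p = 0.00243) and 0.33 ± 0.07 in ITE (adjusted p = 0.00735). HIGD1A, an inducible partner of complex IV, differed by 0.21 ± 0.18 in DMSO and -0.21 ± 0.18 in ITE. The largest subunit difference in DMSO, 0.55 for NDUFB1, was below each of the 6 calls of this list, which began at 0.68 for SLC25A36. Passing the threshold itself selects larger differences. Over all 12 tested the median was 0.50 and the lowest value 0.11, both below NDUFB1.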

How the data were processed

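The authors sequenced RNA of 24 libraries, trimmed the reads (Trim Galore 0.3.3), aligned them to GRCh37 (HISAT2), removed reads that did not map uniquely (Picard 2.0.1) and counted reads per gene (HTSeq 0.5.4p3), per the labels and methods, and deposited raw counts without normalisation. The strand setting of the counting was not given in the sources used here, and removal of non-unique reads lowers genes with retrocopies. Counts were analysed with R 4.3.3, edgeR 4.0.16 (filterByExpr, minimum count 10, TMM, quasi-likelihood test, 1 mean per group), limma 3.58.1 and DESeq2 1.42.0, with Benjamini-Hochberg adjustment over 11735 genes of p-values from two-sided tests. The fit was tested on simulated counts with known changes. These gave each gene 1 spread over all libraries and held no libraries high in short transcripts, so that setting was not tested. Lengths and starts are those of the canonical transcript in GENCODE lifted to GRCh37, and some are long forms that lower levels per kilobase. The members, lists, tests and naming rule were chosen with earlier results of these data known. Named genes are the 2 isoform pairs, members past the threshold, the largest rise and fall in each complex, the highest level per kilobase, tissue isoforms and called genes of the lists, and others were named after their values were seen. Alternatives covered normalisation, filters, DESeq2, sample weights, GC and length offsets, the replicate block and left-out libraries. TWNK, MTERF1, SDHAF3, SDHAF4, UQCC1 to UQCC3, COA7 and mitochondrially encoded genes are not analysed here. A gene and some sequences are not reported here.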

Additional observations from a re-analysis of the deposited data

Results flagged for a closer look

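Among 108 sets of 6 libraries examined for complexes and named genes, 22 held 1 library far from the other 5 by Dixon's criterion, where chance flags about 1 in 20, and members share their libraries. Hypoxia + DMSO replicate 1 accounted for most of them. Its summed CPM was 5623 for complex I, 797.9 for complex II, 2366 for complex III, 3294 for complex IV and 5523 for complex V, with a median log2 deviation of 0.8475 for the subunit genes and 0.649 for other genes under 800 bases. Single genes high in it were COX4I1 (840.3 CPM), COX5A (105.5), COX7B (222.7), NDUFA2 (159.9), NDUFB1 (58.85), NDUFB2 (161.4), NDUFS5 (561.4), SDHC (211.9) and UQCRHL (19.54). In hypoxia + ITE replicate 6, ATP5B was high (1471 CPM) and SDHD and ATP5S were low (42.73 and 2.414 CPM). CYCS was high in hypoxia + ITE replicate 3 (528.6 CPM). In normoxia + DMSO replicate 4 NDUFA4L2 was at 7.697 CPM, and in normoxia + ITE replicate 4 UQCRHL was at 12.71 CPM.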

How the results depend on the processing

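The number of members past the threshold in hypoxia with DMSO, 0 in the reported fit, was 1 with sample quality weights (NDUFA8) and 0 when each library was left out in turn. Sample quality weights called 840 genes in all there, against 152 in the reported fit. In hypoxia with ITE the reported 0 became 7 with DESeq2, 1 with a filter of at least 1 CPM in at least 12 libraries (NDUFA13), 9 at an adjusted p under 0.1, and 0 to 12 when each library was left out. It was 2 without hypoxia + DMSO replicate 1 or hypoxia + ITE replicate 2, and 8, 12 and 11 without hypoxia + ITE replicates 1, 4 and 5. The last 3 fits called 533, 731 and 811 genes in all, and DESeq2 684, against 276 in the reported fit. Over both treatments the reported 3 became 11 with DESeq2, 6 with offsets for GC content and length, 5 with these offsets and the replicate block, 17 at an adjusted p under 0.1, 1 without the 3 libraries high in short transcripts and 1 with the block besides. Leaving out 1 library gave 1 to 14: 1 without normoxia + DMSO replicate 3 or 6, hypoxia + DMSO replicate 1 or hypoxia + ITE replicate 3, and 11, 13, 14 and 7 without hypoxia + ITE replicates 1, 4, 5 and 6. All genes called over both treatments also moved, from 588 to 1125 with DESeq2, and to 1000 and 1021 without hypoxia + ITE replicates 5 and 6. They came to 971 without the 3 libraries. The cause of these shifts was not tested. The subunit median in hypoxia with DMSO lay between 0.10 (without hypoxia + DMSO replicate 1) and 0.31 when 1 library was left out. Without division by length ATP5G1, ATP5G2 and ATP5G3 made up 13.5%, 37.8% and 48.6% of their family. Over all alternatives all genes called ranged from 112 to 840 in hypoxia with DMSO (reported 152), 55 to 811 with ITE (276) and 412 to 1533 over both (588).

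Same-numbered replicates did not deviate together in every pair (correlations across genes from -0.181 to 0.435). For hypoxia, 3 of 6 pairs with DMSO and 4 of 6 with ITE correlated best within their own number. For ITE it was 5 of 6 in normoxia and 2 of 6 in hypoxia. Whether the numbers pair cultures is not known, and the reported fit does not pair them. With the replicate block 0 members were called in hypoxia with DMSO and with ITE, and 2 over both treatments, NDUFB2 being lost. With the compared groups alone and the block, 2 members were called for ITE in normoxia, NDUFA1 and COX7B. That fit called 255 genes in all, against 6 in the reported fit. The depth of the shallowest library limits genes below 3.90 CPM there.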
